A study of Rattus norvegicus with 6 samples.

Results

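The genes described here are 8 genes of the sterol-sensing system that sets how much cholesterol a liver cell makes, takes up and stores: Srebf2, Scap, Insig1, Insig2, Mylip, Stard4, Npc1 and Soat2. They were chosen by gene symbol, as every probe set annotated to 1 of these symbols. The annotation named 11 probe sets for 6 of the 8, out of 14217 genes with a probe set, and all 6 were bright enough to be tested among 10372 genes. Npc1 and Soat2 are not analysed here, so cholesterol uptake is represented by Mylip alone. A probe set is a group of short probes on the array whose brightness is summarised into 1 value, and the value of a gene is that of its brightest probe set over all arrays.

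The animals were Sprague-Dawley rat pups aged 3 weeks, the age of weaning, and 1 liver RNA sample per pup was hybridised to 1 Affymetrix 3' expression array. In the control group, 3 pups came from dams fed standard chow, and in the high fat group 3 pups came from dams fed a high fat diet. The question is whether maternal diet is reflected in these transcripts of the weanling liver. The labels give no litter, so pups may share a dam, and any p-value reflects only how much these individual pups varied.

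Cells read their cholesterol level in the membrane of the endoplasmic reticulum. SCAP carries the transcription factor SREBP2, the product of Srebf2, to the Golgi when sterols are low, and INSIG1 and INSIG2 hold SCAP back when sterols are plentiful. In the Golgi, SREBP2 is cut free by a pair of proteases and switches on the genes of cholesterol synthesis and uptake, Insig1 and Srebf2 itself among them. Liver X receptors (LXR) answer to excess sterol and switch on Mylip, which encodes the ubiquitin ligase IDOL and marks lipoprotein receptors for breakdown. STARD4 carries cholesterol through the cytosol.

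Promoter windows of 4 members are shown first, of a pair that had lower means in the high fat group, Srebf2 and Insig1, and of the pair that had higher means, Insig2 and Mylip. Each runs from 250 bases before a RefSeq transcript start to 50 bases after it, on build GRCr8, 5′ to 3′ on the strand of the gene. Capitals mark exact matches, on either strand, to 1 of the searched motifs. These were TCACNCCAC, a core of the sterol regulatory element, its shorter form TCACCCCA, the E-box CACGTG, the NF-Y box CCAAT and the Sp1 box GGGCGG.
Srebf2, chr7:115543057-115543356, plus strand: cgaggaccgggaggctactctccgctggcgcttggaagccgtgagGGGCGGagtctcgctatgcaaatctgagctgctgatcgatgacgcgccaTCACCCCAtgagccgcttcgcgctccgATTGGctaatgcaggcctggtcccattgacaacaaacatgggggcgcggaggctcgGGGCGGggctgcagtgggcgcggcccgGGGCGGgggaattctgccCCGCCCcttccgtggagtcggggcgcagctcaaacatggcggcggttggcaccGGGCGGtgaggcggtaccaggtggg
Insig1, chr4:8057720-8058019, minus strand: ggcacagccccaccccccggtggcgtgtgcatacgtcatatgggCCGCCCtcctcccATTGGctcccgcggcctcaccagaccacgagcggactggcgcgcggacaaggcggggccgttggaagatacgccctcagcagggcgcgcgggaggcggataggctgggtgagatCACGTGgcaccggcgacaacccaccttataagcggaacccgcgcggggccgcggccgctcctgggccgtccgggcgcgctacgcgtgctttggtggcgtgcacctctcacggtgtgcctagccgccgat
Insig2, chr13:35040049-35040348, minus strand: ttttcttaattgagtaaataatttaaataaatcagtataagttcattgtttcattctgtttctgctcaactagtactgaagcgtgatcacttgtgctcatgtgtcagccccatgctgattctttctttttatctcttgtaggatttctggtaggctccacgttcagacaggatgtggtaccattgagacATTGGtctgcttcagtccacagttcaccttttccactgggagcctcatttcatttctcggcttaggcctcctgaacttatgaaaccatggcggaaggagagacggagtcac
Mylip, chr17:19514422-19514721, minus strand: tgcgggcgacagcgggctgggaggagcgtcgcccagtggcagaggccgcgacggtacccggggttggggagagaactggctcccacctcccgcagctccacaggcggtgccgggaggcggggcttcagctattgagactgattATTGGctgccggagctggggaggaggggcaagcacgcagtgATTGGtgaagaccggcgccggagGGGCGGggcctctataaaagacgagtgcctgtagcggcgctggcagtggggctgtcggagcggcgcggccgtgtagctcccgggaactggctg

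Of the 6 measured members 5 had a window in the RefSeq table. None of these held TCACNCCAC, which 1.12% of all 33469 windows hold. TCACCCCA was added after the sequences were seen. It lay in the Srebf2 window, 156 bases before the start, and in 1.37% of all windows. The E-box was in the windows of Insig1, 79 bases before the start, and Scap, and in 6.42% of all windows. The NF-Y box was in those of Srebf2, Insig1, Insig2 and Mylip, where 37.5% of all windows hold it, and the Sp1 box was found 5 times in Srebf2, 3 times in Scap and once each in Insig1 and Mylip (33.1% of all windows). No searched motifs overlapped in the windows printed. The Insig2 window differed in base composition, with 42% G and C against 68.7% in Srebf2, 71.3% in Insig1 and 69.3% in Mylip, and a median of 51.7% over all windows. It also lies inside the annotated extent of Insig2 (chromosome 13, 35025160 to 35052937, minus strand), so longer transcripts start upstream of it. The same holds for Srebf2 on chromosome 7, whose annotated extent begins at 115542774. A match is a string of letters and no evidence of binding. Sequence outside these windows was not searched, so a missing match does not show that a gene lacks the element.

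Srebf2 lay lower in every high fat pup than in any control pup, as did most cholesterol synthesis enzymes, while Insig2 and Mylip lay higher in every high fat pup. Insig1, Stard4 and Scap had lower means in the high fat group but overlapping values. None of the 6 genes passed an adjusted p under 0.05 in limma, a threshold that 4 of all 10372 genes (0.0386%) passed. At an unadjusted p under 0.05 there were 3 of 6, Srebf2, Insig2 and Mylip, where 14.0% of all genes tested lay. Of the 16 alternatives run, that threshold was kept in 15 for Srebf2, 10 for Mylip and 3 for Insig2. Insig1, which missed it in the main fit, met it in 4, Stard4 in 2 and Scap in 0. Insig2 and Insig1 were thus not set apart by this measure. In the limma fit over single probe sets with no brightness filter, the unadjusted p was 0.0194 for Srebf2 but 0.0858 for the brighter Insig2 probe set and 0.0671 for Mylip. In Srebf2, Insig2 and Mylip the groups did not overlap, which held for 20.8% of all genes (9.26% higher and 11.6% lower). Srebf2 alone of the 6 had both an unadjusted p under 0.05 and a 1.5-fold difference, a rule that 6.69% of all genes met. Insig1 (1.95-fold) and Stard4 (1.69-fold) also differed by over 1.5-fold, at limma unadjusted p of 0.056 and 0.083. The median log2 change over the 6 genes was -0.49, beside -0.02 over all genes tested.

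**Figure D1:**
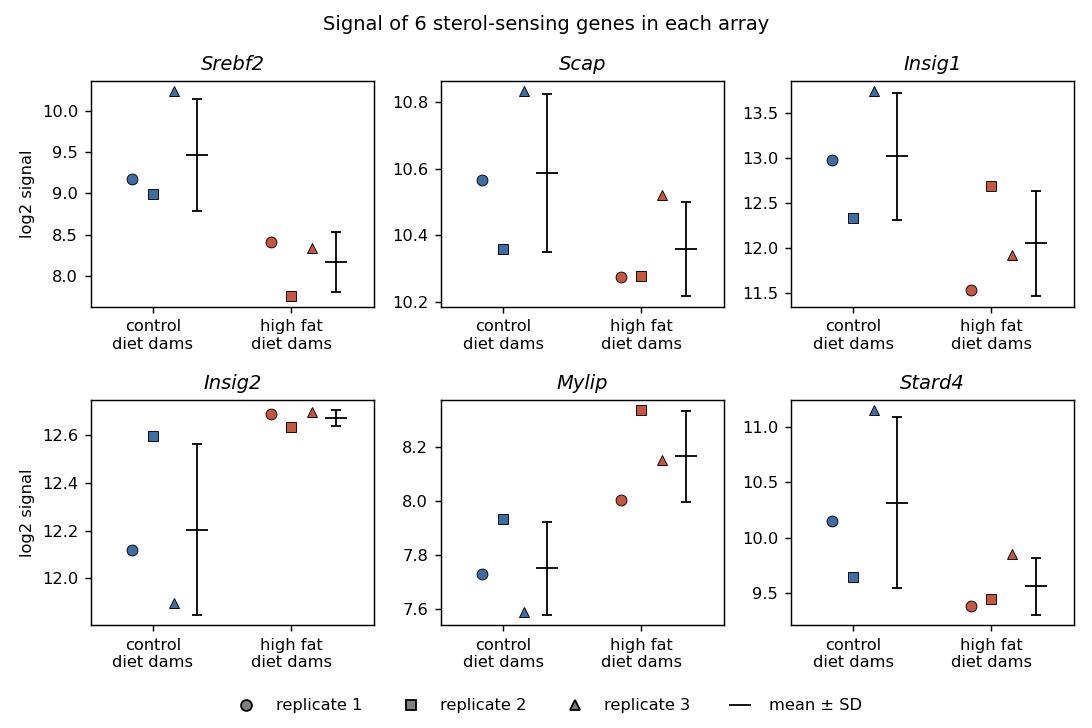
Log2 signal of the 6 measured sterol-sensing genes in each array (vertical axes, each with its own range), by diet of the dam. Symbols mark the replicate number, by which the labels give no pairing of pups, and bars show the mean ± SD of 3 arrays. The groups are apart in Srebf2, Insig2 and Mylip, and control replicate 3 is the highest array for Srebf2, Scap, Insig1 and Stard4.

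Srebf2, the transcription factor of cholesterol synthesis and uptake, had log2 signals of 9.17, 8.99 and 10.24 in control replicates 1 to 3. In the high fat pups it was at 8.41, 7.75 and 8.34. The groups did not overlap, with high fat replicate 2 the lowest and control replicate 3 the highest by over 1 log2 unit. The means were 9.47 ± 0.68 (SD, n = 3) and 8.17 ± 0.36 (SD, n = 3), a log2 change of -1.30 (SE 0.36, 95% interval -2.15 to -0.46, limma adjusted p = 0.224), or 2.46-fold lower. In bulk liver, fewer cells of a type and less RNA per cell cannot be told apart. Without control replicate 3 the difference was -0.92, and with a covariate for RNA integrity it was -0.85.

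Scap, which encodes the escort of SREBP2 and so the sterol sensor itself, differed little. Its signals were 10.57, 10.36 and 10.83 in controls and 10.27, 10.28 and 10.52 in high fat pups. High fat replicate 3 lay above control replicate 2, so the groups overlapped. The log2 change was -0.23 (SE 0.17, 95% interval -0.62 to 0.16, limma adjusted p = 0.589), and -0.11 without control replicate 3. Set against Scap within each array, Srebf2 was lower by a further 1.07 log2 units in the high fat group (control -1.12 ± 0.46, high fat -2.19 ± 0.33, SD, n = 3 each), with no overlap. The exact permutation p for this unequal change was 0.1, the smallest that 3 against 3 arrays allow, and 0.133 when adjusted over the 4 pairs of genes compared. With all probe sets averaged the same difference was -0.67, with an exact permutation p of 0.4.

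The INSIG paralogs, both anchors of SCAP in the endoplasmic reticulum, differed in opposite directions. Insig1, a target of SREBP2, was at 12.98, 12.33 and 13.74 in controls and at 11.54, 12.69 and 11.93 in high fat pups. High fat replicate 2 reached above control replicate 2, and the log2 change was -0.96 (SE 0.42, 95% interval -1.96 to 0.03, limma adjusted p = 0.369). The size of its difference leaned on single pups. It was -0.60 without control replicate 3, -0.71 without high fat replicate 1 and -1.31 without control replicate 2, and -0.32 with high fat replicates 1 and 3 both left out, which leaves 1 high fat pup whose spread is taken to be that of the controls.

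Insig2, which unlike Insig1 is not a target of SREBP2, was the most even of the members in the high fat group, at 12.69, 12.63 and 12.70, an SD of 0.03 (n = 3). Controls spread from 11.90 in replicate 3 through 12.12 in replicate 1 to 12.60 in replicate 2, an SD of 0.36 (n = 3). Control replicate 2 was within 0.04 log2 units of the lowest high fat pup, so the absence of overlap rested on a narrow margin at this probe set. The log2 change was 0.47 (SE 0.19, 95% interval 0.01 to 0.93, limma adjusted p = 0.348), or 1.38-fold higher. Its other probe set gave 11.77, 11.84 and 11.31 in controls and 11.87, 12.37 and 12.35 in high fat pups, a change of 0.55. The groups again did not overlap, but the margin was narrow here too, with control replicate 2 at 11.84 and high fat replicate 1 at 11.87.

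Taken within each array, Insig1 minus Insig2 was 0.86, -0.27 and 1.84 in controls and -1.15, 0.06 and -0.77 in high fat pups. Replicate 2 of each group broke the separation. The paralogs' changes differed by -1.43, with an exact permutation p of 0.2 (0.2 over the 4 pairs) where 0.1 is the smallest that 3 against 3 arrays allow. The difference was -0.92 without control replicate 3. Without control replicate 2 it was -1.97 and the groups were apart, at the smallest exact permutation p of 0.1.

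Mylip, the LXR target that lowers lipoprotein receptors, was at 7.73, 7.93 and 7.59 in controls and at 8.004, 8.34 and 8.15 in high fat pups. Every high fat value lay above every control value, the nearest being high fat replicate 1 and control replicate 2. The log2 change was 0.41 (SE 0.15, 95% interval 0.05 to 0.78, limma adjusted p = 0.314), or 1.33-fold higher, and 0.33 to 0.51 with 1 array left out. Against Srebf2 within each array, Mylip was higher by 1.72 log2 units in the high fat group, without overlap (exact permutation p = 0.1; 0.133 over the 4 pairs). With all probe sets averaged it was 1.39 with overlapping groups, and without high fat replicate 2 it was 1.42 with the groups still apart (exact permutation p = 0.2 in both).

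Stard4, the cytosolic sterol carrier, was at 10.15, 9.64 and 11.16 in controls and at 9.38, 9.45 and 9.85 in high fat pups. High fat replicate 3 lay above control replicate 2, so the groups overlapped. The log2 change was -0.76 (SE 0.37, 95% interval -1.65 to 0.13, limma adjusted p = 0.424). Control replicate 3 carried much of it, since the change was -0.34 without that pup, and -0.41 with the covariate for RNA integrity.

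**Figure D2:**
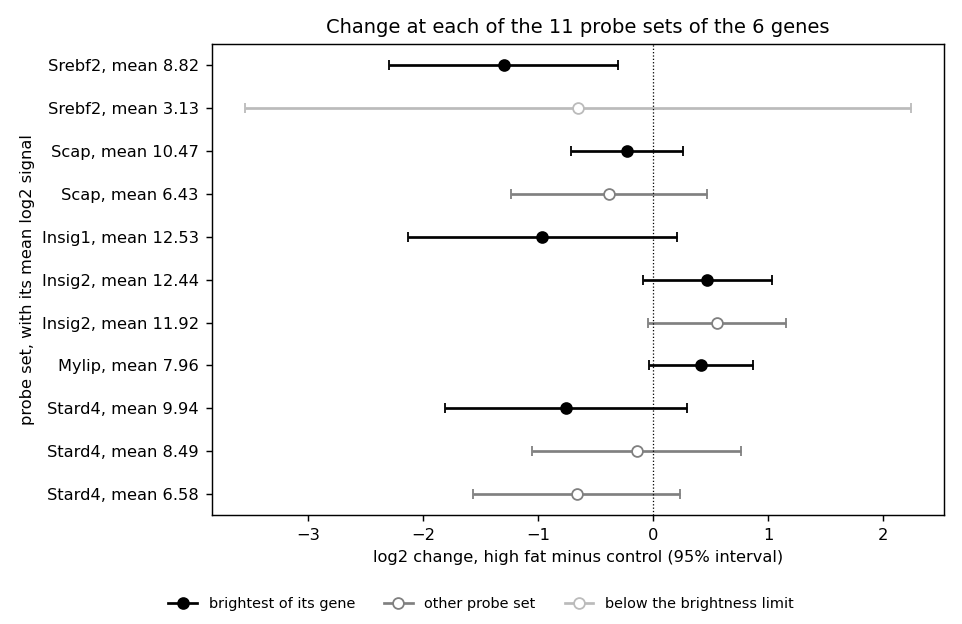
Log2 change, high fat minus control (horizontal axis), with its 95% interval at each of the 11 probe sets of the 6 genes, fitted over all 31042 probe sets with no brightness filter, so intervals are wider than in the gene fit and those of Insig2 and Mylip include 0. The 8 probe sets of Srebf2, Scap, Insig1 and Stard4 lie below 0 and the 3 of Insig2 and Mylip above 0.

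Several probe sets of a gene pointed the same way in each of the 4 members that had more than 1. The second probe set of Srebf2 was dim, with a mean of 3.13, below the brightness limit of 5.83, and ranged from 1.38 to 4.86 in controls and from 1.94 to 4.52 in high fat pups. It gave -0.65 (SE 1.16), too wide an error to speak for or against the brighter one. The second of Scap gave -0.38 (SE 0.34). The 3 probe sets of Stard4 gave -0.76, -0.14 and -0.67, so the middle one, with a mean of 8.49, showed little difference. With all probe sets of a gene averaged, Srebf2 was at -0.98 and Stard4 at -0.52.

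The members showed 2 opposite orders across pups. Among controls, Srebf2, Scap, Insig1 and Stard4 were all highest in replicate 3 and lowest in replicate 2, and Insig2 and Mylip were highest in replicate 2 and lowest in replicate 3. The median of the synthesis enzymes followed the first order, though Mvk, Pmvk, Tm7sf2 and Dhcr7 were lowest in control replicate 1, with list medians of -0.08, -0.70 and 0.87 around the control mean in replicates 1 to 3, against -1.72, -1.98 and -1.49 in the high fat pups. In control replicate 3, Srebf2 deviated by 0.77, Insig1 by 0.72 and Stard4 by 0.84, close to the enzymes' 0.87. In high fat replicate 2 Insig1 was at -0.33, near Scap at -0.31 and above Stard4 at -0.87 and Srebf2 at -1.72.

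**Figure D3:**
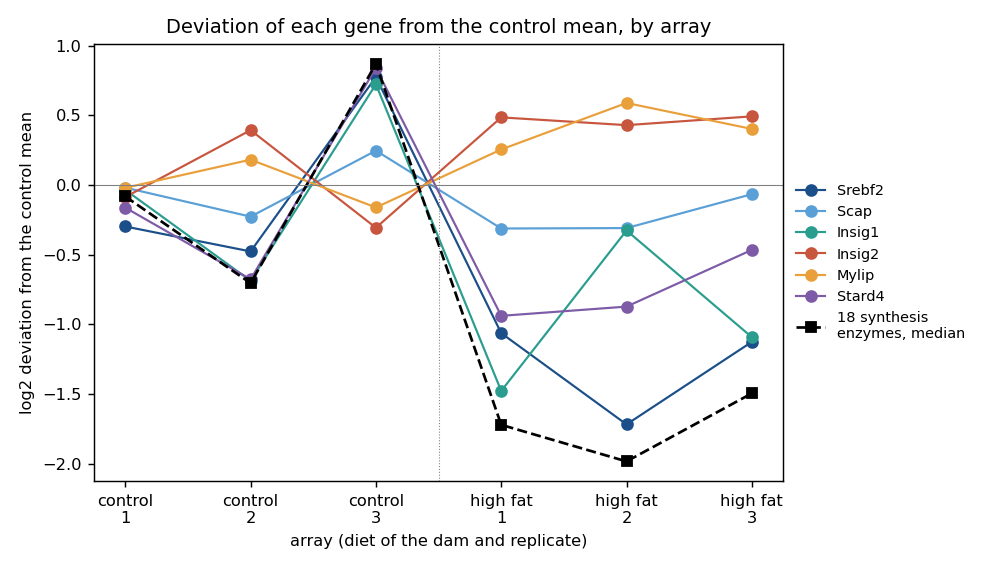
Log2 deviation of each member, and of the median of 18 cholesterol synthesis enzymes, from the mean of the 3 control arrays (vertical axis), by array; lines only join the points of 1 gene, and replicates have no order. Insig2 and Mylip run opposite to the others, and in high fat replicate 2 Insig1, at -0.33, stands beside Scap and nearer the controls than Srebf2 does.

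Over the 6 arrays Pearson's r with Srebf2 was 0.86 for Scap, 0.70 for Insig1 and 0.90 for Stard4, and -0.87 for Insig2 and -0.96 for Mylip. These values describe 6 points that share their arrays and the diet difference, and no test was made of them. Without control replicate 3, r with Srebf2 was -0.96 for Mylip and -0.66 for Insig2, but 0.24 for Insig1 and 0.57 for Scap. Scap and Stard4 kept the closest likeness among members, at 0.98 with all arrays and 0.97 without control replicate 3. The 5 genes most like Srebf2 over the 6 arrays were Bloc1s1, Uqcr11, Narf, Rasd1 and Arhgap24, all at 0.99, and 277 of 10371 genes (2.67%) exceeded 0.9. Of the 18 synthesis enzymes, 16 did so, with a median of 0.96, and Fdft1, squalene synthase, was the closest, in place 7 of all genes. The 3 genes most like Insig1 were Zbtb17, Ptpn21 and Zc3h11a, at 0.98, and no synthesis enzyme exceeded 0.9 with it. Stard4 was closest to Mvd among the enzymes, at 0.99.

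The enzymes downstream of SREBP2 had lower means in the high fat group throughout. All 18 measured of the 21 listed were below 0, where 53.1% of all genes were, with a median of -1.74. None passed the adjusted test, and 16 met the looser rule of an unadjusted p under 0.05 with a 1.5-fold difference (3.36% of all genes, lower side). In 16 the groups did not overlap (11.6% of all genes, lower side). Sqle, squalene epoxidase, was at -4.0 (SE 0.59), Hsd17b7 at -2.34, Idi1 at -3.40 and Msmo1 at -2.81. Ggps1, which makes the longer isoprenoid used outside sterol synthesis, was at -0.01, and Nsdhl at -0.40. The 3 probe sets of Ggps1 ranged from -0.85 to 0.06.

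**Figure D4:**
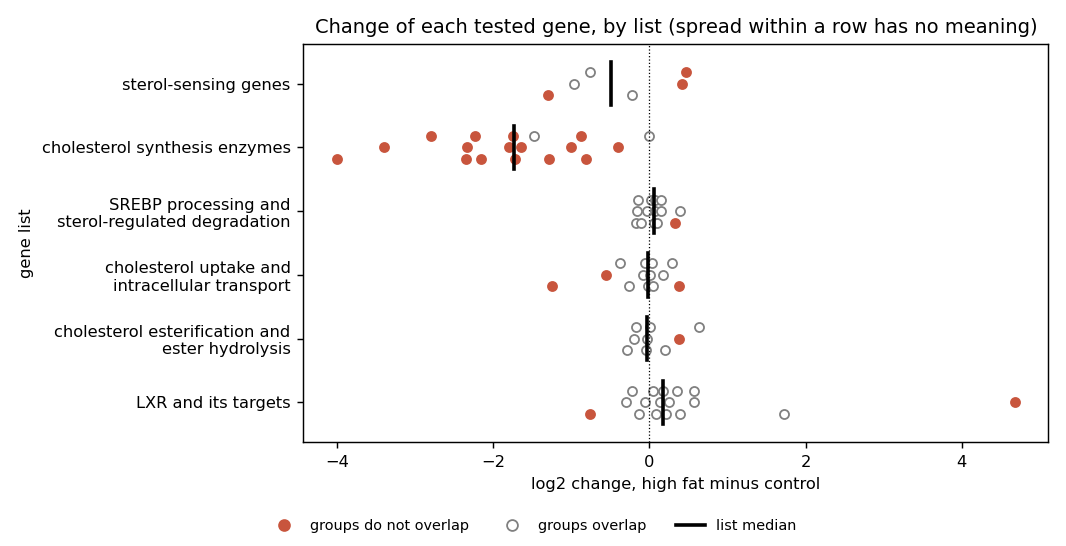
Log2 change, high fat minus control (horizontal axis), of each tested gene in the sterol-sensing list and 5 related lists; filled points are genes whose groups do not overlap and black bars are list medians. Of the 18 synthesis enzymes 16 are filled on the lower side, and the SREBP processing list stays between -0.17 and 0.39.

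The machinery that cuts SREBP and breaks down its regulators showed smaller differences. Of 14 tested genes, 9 were higher and 5 lower (median 0.06), and the adjusted test called none. Mbtps2, which encodes the site-2 protease that releases SREBP, was the only 1 of the 14 with a limma unadjusted p under 0.05, where 14.0% of all genes tested lay. It was at 9.15, 9.14 and 9.03 in controls and at 9.62, 9.34 and 9.35 in high fat pups, apart from each other, with a log2 change of 0.33 (SE 0.14, limma adjusted p = 0.348). Aup1 (-0.14) and Vcp (-0.11), both of protein disposal at the endoplasmic reticulum, had larger p-values.

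Srebf1, the paralog that serves fatty acid synthesis more than cholesterol, was at 9.33, 9.38 and 10.59 in controls and at 10.09, 10.62 and 9.75 in high fat pups. The groups overlapped, and the log2 change was 0.39 (SE 0.38, 95% interval -0.53 to 1.30). Srebf2 minus Srebf1 was tight in controls, at -0.30 ± 0.12 (SD, n = 3), and lower in every high fat pup, at -1.99 ± 0.77 (SD, n = 3). The changes of the SREBP genes thus differed by -1.69, with an exact permutation p of 0.1 and 0.133 over the 4 pairs, and by -1.25 to -1.98 with 1 array left out. With all probe sets averaged it was -1.56, with overlapping groups and an exact permutation p of 0.2.

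Among other genes of cholesterol uptake and transport, 6 of 13 tested were higher and 7 lower (median -0.01), and the adjusted test called none. The groups did not overlap in 1 of the 13 on the higher side and 2 on the lower side, beside 20.8% of all genes. Tmem97, the sigma-2 receptor, which binds NPC1, was at 11.76, 11.36 and 11.88 in controls and at 10.53, 9.99 and 10.75 in high fat pups. Its groups were well apart, with a log2 change of -1.24 (SE 0.24, limma adjusted p = 0.168), close to that of Srebf2. Lipa, the lysosomal acid lipase that frees cholesterol from lipoprotein esters, was apart on the higher side (0.38, SE 0.15), and Lrp1, a scavenging lipoprotein receptor, on the lower side (-0.55, SE 0.26). Stard5, another sterol carrier, was at -0.38 with overlap. Npc2, which hands cholesterol to NPC1 in the lysosome, was at -0.08 (SE 0.14).

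Of 9 tested genes of cholesterol ester formation and hydrolysis, 4 were higher and 5 lower (median -0.03), with none past the adjusted test. Nceh1, a cholesterol ester hydrolase, was at 0.64 (SE 0.25) with overlapping groups. Soat1, which esterifies cholesterol in most tissues, was at -0.17 (SE 0.34), Mttp, which loads lipoproteins, at 0.20 and Ces1d at -0.29. The other, dimmer probe set of Soat1 was at -1.84.

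Of the LXR list 12 of 17 tested genes were higher, with a median of 0.18, or 0.04 without high fat replicate 3. The desaturase gene Scd passed the adjusted test upward, as the only gene of these lists to do so (log2 change 4.68, SE 0.27, limma adjusted p = 0.00696). It is a target of SREBP1 and other factors besides LXR, and leaving out control replicate 1 or control replicate 3 took the limma count of passing genes to 0 (1313 and 1144 genes at an unadjusted p under 0.05). Nr1h3, which encodes LXR alpha itself, was at 11.64, 11.77 and 12.26 in controls and at 10.98, 11.17 and 11.26 in high fat pups. It was lower in every high fat pup, by -0.76 (SE 0.19, limma adjusted p = 0.211), on the opposite side from Mylip. Rgs16 was at 1.72 (SE 0.70) and Lpl at 0.57 (SE 0.27), both with overlap. The sterol exporter genes Abca1 (-0.05, SE 0.15) and Abcg5 (0.56, SE 0.41), chosen after their values were seen, overlapped between groups too.

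All arrays carried strong hepatocyte transcripts, with a mean log2 level of 14.54 to 14.71 over 11 markers. High fat replicate 1 also held exocrine pancreas transcripts, with a mean of 11.99 over 11 markers against 4.63 to 5.28 in the others. High fat replicate 3 alone had low Xist (4.45, others 12.46 to 13.31) and high Y-linked Eif2s3y (11.14, others 0 to 3.99). This is the pattern of a male, so the groups were not balanced by sex, and the part of sex was not tested. Without high fat replicate 1 Srebf2 was at -1.42, Insig2 at 0.46 and Mylip at 0.49, and without high fat replicate 3 at -1.39, 0.45 and 0.42. In that order of genes, limma unadjusted p was 0.013, 0.097 and 0.030 without replicate 1, and 0.016, 0.103 and 0.070 without replicate 3. The 9 sinusoidal endothelial markers tested were all lower in the high fat group, with mean levels of 10.38 to 10.59 in controls and 9.69 to 10.02 in high fat pups. Their part in the results was not tested. Kupffer cell markers (10.41 to 10.69 in controls, 10.20 to 10.79 in high fat) and stellate cell markers (9.21 to 9.30 and 9.02 to 9.29) overlapped in their mean level. Single markers went both ways, since Lrat (0.70), Col1a1 (0.44) and Col1a2 (0.47) were apart on the higher side and Pdgfrb (-0.48) and the Kupffer marker Cd163 (-0.52) on the lower side, and Dcn was at -1.50 with overlap. Of 9 enterocyte markers 5 lay below the brightness limit, Si and Vil1 among the dimmest. The difference between 3' and 5' probe sets of actin and GAPDH, which grows as RNA breaks down, was largest in control replicate 3. It was 3.06 log2 units there against 1.92 to 2.46 in the others. In the same array Srebf2, Scap, Insig1 and Stard4 were highest and Insig2 and Mylip were lowest. That array's part is given by the values without it, and the part of RNA integrity was not tested beyond the covariate.

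**Figure D5:**
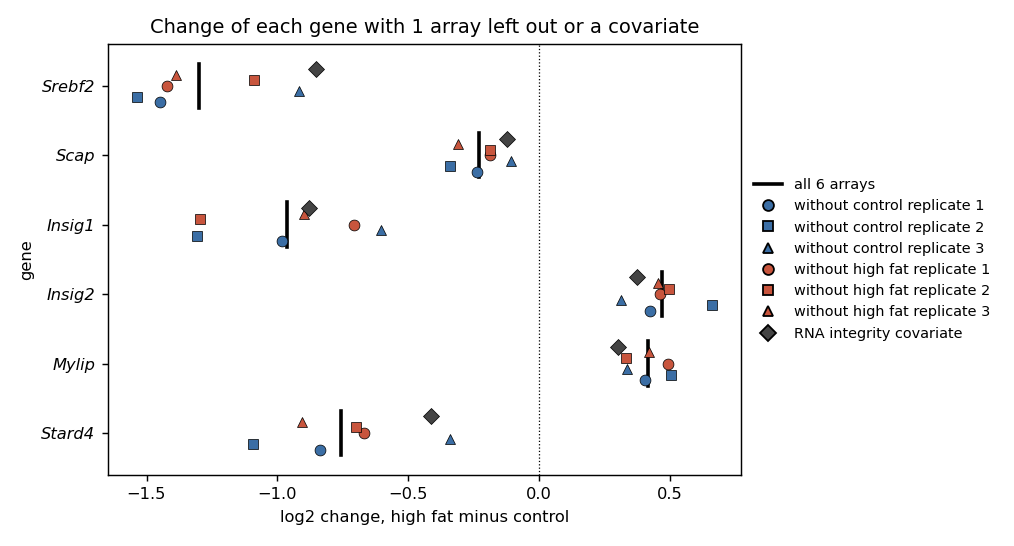
Log2 change of each member, high fat minus control (horizontal axis), with all 6 arrays (bar), with each array left out (blue control, red high fat) and with the covariate for RNA integrity (diamond). Every point stays on the side of 0 of its bar. For Srebf2, Scap, Insig1, Insig2 and Stard4 the value without control replicate 3 is nearest to 0 or next to it. For Mylip the values with the covariate and without high fat replicate 2 are nearest to 0.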

How the data were processed

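Liver RNA of 6 pups was labelled with a 3' IVT kit and hybridised to Affymetrix arrays, according to the labels' protocols. The authors deposited signals taken here as log2, a scale inferred from the values. Read in base 2, each array has nearly the same 2% trimmed mean, about 500, and other bases were not tried. They summarised probes with software not given in the sources used here. Each array lists 91 to 144 of its 31099 probe sets at a floor of 0.

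The 57 control probe sets were left out and the rest quantile-normalized, because quartiles differed between arrays. Of 31042 probe sets, 20826 were annotated to 1 gene, 436 to several and 9780 to none here. RefSeq gene IDs gave current symbols for 20758. Probe sets dimmer than 5.83 on average (40%) were dropped, and the brightest probe set stood for a gene. The diets were compared by limma 3.58.1 under R 4.3.3 (lmFit, eBayes, 2-sided), adjusting by Benjamini-Hochberg over 10372 genes. Within-array differences between genes were compared by 2-sided exact permutation tests. The fit was tested on simulated data. Figures used matplotlib 3.10.9 in Python 3.11.15. Promoter sequences are RefSeq's, build GRCr8, for 5 of the 6 measured members. Pairs with Soat2 or Npc1 and the INSIG proteins were planned and are not analysed here.

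Named genes were the members, up to 4 genes of each list with the smallest p, the partner genes of the pairs, the genes most like Srebf2 (5) and Insig1 (3), and markers; Ggps1, Nsdhl, Fdft1, Mvd, Mvk, Pmvk, Tm7sf2, Dhcr7, Abca1 and Abcg5 were chosen after their values were seen. Members and lists were chosen with earlier results of these data known. Alternatives covered normalization, brightness filter, probe sets, variance model, weights, replicate block, RNA integrity, thresholds and arrays left out. The number of arrays limits the precision.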

Additional observations from a re-analysis of the deposited data

How the results depend on the processing

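Each of the 6 genes kept its direction, and stayed short of an adjusted p under 0.05 in limma, in all 16 alternatives run. With 1 array left out, Srebf2 ranged from -1.54 to -0.92, Scap from -0.34 to -0.11, Insig1 from -1.31 to -0.60, Insig2 from 0.31 to 0.66, Mylip from 0.33 to 0.51 and Stard4 from -1.09 to -0.34, and the enzyme median from -2.13 to -1.28. Over the same settings the medians of SREBP processing, of uptake and transport and of esterification lay between -0.09 and 0.10. The 4 genes past the adjusted threshold became 1 with no brightness filter or with the lowest 20% left out, 0 with the RNA integrity covariate, and 0 to 3 with 1 array left out (0 without control replicate 1 and without control replicate 3). At an unadjusted p under 0.05 limma gave 1100 genes with the covariate, 1313 without control replicate 1 and 1144 without control replicate 3. Genes whose groups do not overlap numbered 3015 to 3435 with 1 array left out and 6052 with high fat replicates 1 and 3 left out, as fewer arrays overlap less. The looser count was 142 at an unadjusted p under 0.01 and 2-fold. The labels give no pairing of the pups by replicate number. Same-numbered pups correlated at -0.14 to -0.13 in their deviations from the group means, which cannot decide it with 3 pups per group. With the replicate block 0 genes passed (1102 at an unadjusted p under 0.05), and Srebf2 had an adjusted p of 0.319 in limma. Limma unadjusted p with the block was 0.0039 for Srebf2, 0.030 for Stard4 and 0.044 for Mylip. For Insig2, Insig1 and Scap it was 0.071, 0.087 and 0.192. Dim probe sets, such as the second of Srebf2, are limited by signal over background.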
